A study of Mus musculus with 4 samples.

Results

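One day of CL was examined across the cell types of mouse inguinal white adipose tissue (iWAT), the fat pad under the skin of the groin. CL is CL-316,243, a selective agonist of the β3-adrenergic receptor (Adrb3). Chromatin accessibility of single nuclei was measured by snATAC-seq, in which the Tn5 transposase inserts sequencing adapters into open DNA and combinatorial barcodes tell the nuclei apart. Nuclei were summed per mouse and per cluster of the authors' annotation, sums of at least 10 nuclei were kept, and the 3 day1CL mice were compared with the 3 day0RT mice in every cluster that all 6 mice had. This left 6 of 12 clusters, namely white adipocytes, macrophages, B cells, CD4 T cells, CD8 T cells and other T cells, with 7742 of the 32552 nuclei of the series and 36 of its 223 sums. The day0RT mice gave 4319 of these nuclei and the day1CL mice 3423. All mice were male C57BL/6 animals, 8 weeks old by the labels, kept at room temperature (RT, 22 °C) until the intervention. The day0RT tissue was taken before any intervention, and the day1CL mice received CL at 1 mg/kg for 1 day at RT. The sources used here name no vehicle-treated group, so the drug and its administration cannot be told apart. The day1C mice, which spent 1 day in the cold (6 °C by the study's methods) without CL, served as a second reference. Mice given CL for 3 or 7 days (day3CL and day7CL) appear where later values are named.

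The 3 day1CL mice differed strongly in the nuclei they gave. White adipocyte nuclei numbered 172, 144 and 263 in day0RT replicates 1 to 3 and 23, 63 and 559 in day1CL replicates 1 to 3. B cell nuclei ran the other way, with 680, 461 and 639 in day0RT and 644, 615 and 66 in day1CL. Day1CL replicate 3 thus held most of the adipocyte and macrophage nuclei of its group and few of the lymphocytes, and the counts and main results below are given with and without this adipocyte-rich mouse. Total counts over all peaks followed the nuclei. They were 515965, 338689 and 1025558 in the day0RT white adipocytes and 44198, 200163 and 1415369 in those of day1CL. B cells of day1CL replicate 3 had 50392 counts, against 478086 to 1082366 in day0RT. Here a count is 1 nucleus with a read in 1 peak, because the deposited matrix holds only 0 and 1. Nuclei had a median of 873 to 1418.5 counts in the day0RT mice and 657.5 to 1128 in the day1CL mice. In B cells alone the medians were 1098.5, 785 and 1208 in day0RT and 601, 628 and 659.5 in day1CL, without overlap. CD4 T cells (854 to 1292 against 509 to 696) and CD8 T cells (894 to 1550 against 593 to 695) were also lower without overlap. In the other cell types compared the medians overlapped. The part of this depth in the calls was not tested. No nucleus barcode was shared between a day0RT and a day1CL mouse, whereas day1CL replicate 1 shared 222 barcodes with day3CL replicate 1 and 313 with day7CL replicate 1, and the other day1CL mice likewise shared barcodes with the same-numbered mice of those groups. In the study 3 batches were processed independently, and which mouse was in which batch is not given in the sources used here.

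**Figure D1:**
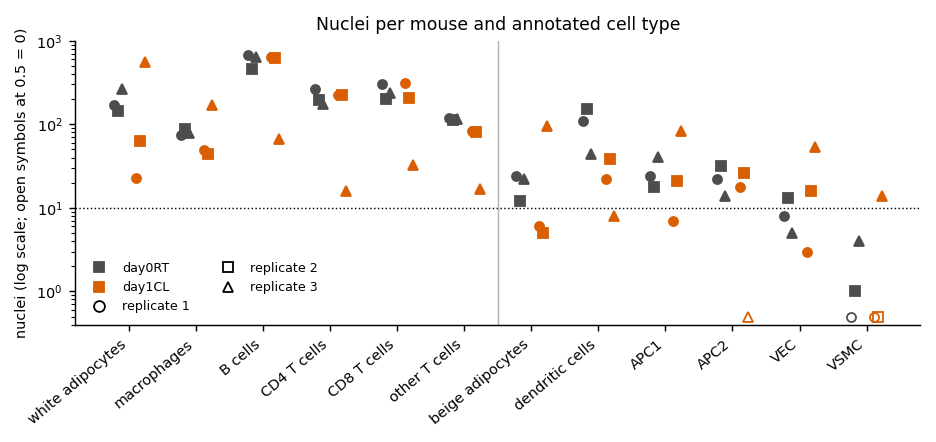
Nuclei per mouse (log axis) in each cluster, with day0RT and day1CL mice as points, day1CL replicate 3 as a triangle, and a dotted line at the minimum of 10 nuclei. In white adipocytes day1CL replicate 3 had 559 nuclei and the other day1CL mice 23 and 63, and in B cells it had 66 against 644 and 615.

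As background, Adrb3 is a Gs-coupled receptor of adipocytes. Its agonists raise cyclic AMP through adenylyl cyclase and activate protein kinase A (PKA), which phosphorylates lipases and perilipin and so releases fatty acids from the lipid droplet. Sustained signalling of this kind drives thermogenic genes such as Ucp1, and also fatty acid synthesis, which runs beside fatty acid oxidation in thermogenic fat.

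The sequences shown here come from peaks named by a rule of size and replication in white adipocytes and B cells, since the account of single peaks turns on them. Consensus letters of 6 factor families were searched on both strands of all tested peaks, and each stretch holds 50 bases on either side of a match, in capitals, or the whole peak where none of the 6 was found. The letters were TGACTCA (AP-1), TGACGTCA (CRE), AAAGGTCA (NR4A), TCAAGGTCA (ERR, which overlaps NR4A in its last letters), TTGCGCAA (C/EBP) and ACANNNTGT (steroid receptors, where N is any base). All coordinates are of GRCm38 (mm10), plus strand. Not all named peaks are shown. The first 3 stretches lie in peaks that changed in white adipocytes and hold the steroid receptor letters, found in 23.0% of all peaks tested there. Of the named adipocyte peaks not shown, the one at Fasn holds the NR4A letters. The one near 4931406P16Rik holds the AP-1 and ERR letters, and the one near Zfp213 holds none of the 6 words. The stretch at chr1:72255182-72255290 holds ACAGCATGT in a peak that rose and whose nearest gene start is that of Pecr, and it overlaps an exon of the snRNA gene Gm25939. The stretch at chr10:79896748-79896856 holds ACATGCTGT, lies in an exon of Med16, and belongs to the peak with the smallest p in white adipocytes, near Cfd, which encodes adipsin. The stretch at chr2:157519840-157519948 holds ACACTGTGT in an intergenic peak nearest to Nnat. The last pair changed in B cells. The peak at chrX:143482906-143483205 lies between genes, ahead of the start of Pak3, and held none of the 6 consensus words. The stretch at chr11:3174079-3174185 holds TGACTCA inside Sfi1, outside its annotated exons.
Pecr peak: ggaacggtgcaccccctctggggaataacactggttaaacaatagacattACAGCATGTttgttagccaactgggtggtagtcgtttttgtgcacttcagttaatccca
Cfd peak: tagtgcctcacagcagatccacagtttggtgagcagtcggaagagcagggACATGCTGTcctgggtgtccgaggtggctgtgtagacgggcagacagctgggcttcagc
Nnat peak: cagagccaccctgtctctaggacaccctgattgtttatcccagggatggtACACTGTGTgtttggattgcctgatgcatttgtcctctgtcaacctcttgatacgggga
Pak3 peak: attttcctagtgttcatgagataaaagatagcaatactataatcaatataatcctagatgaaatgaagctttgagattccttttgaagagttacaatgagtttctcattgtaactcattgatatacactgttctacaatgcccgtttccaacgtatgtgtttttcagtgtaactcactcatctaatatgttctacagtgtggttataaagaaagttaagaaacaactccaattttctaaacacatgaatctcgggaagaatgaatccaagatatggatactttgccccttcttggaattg
Sfi1 peak: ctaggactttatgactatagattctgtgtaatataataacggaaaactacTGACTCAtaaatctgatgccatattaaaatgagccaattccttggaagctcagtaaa

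Gene accessibility, the summed counts of all peaks over a gene's body and the 2000 bases upstream, was compared with edgeR's quasi-likelihood test and a Benjamini-Hochberg adjusted p under 0.05. White adipocytes and B cells carried most of the calls. In white adipocytes 261 of 13508 genes (1.93%) passed, 115 higher in day1CL (0.851%) and 146 lower (1.08%). In B cells 308 of 11502 genes (2.68%) passed, 202 higher (1.76%) and 106 lower (0.922%). CD8 T cells had 15 genes of 10375 (0.145%), CD4 T cells 2 of 9617 (0.0208%), macrophages 3 of 3553 (0.0844%) and other T cells 3 of 5824 (0.0515%). Of single peaks, 440 of 32541 (1.35%) passed in white adipocytes, 34 of 21628 (0.157%) in B cells, 3 of 14368 (0.0209%) in CD8 T cells and 1 of 11620 (0.00861%) in CD4 T cells. None of 451 peaks passed in macrophages (0%) and none of 4025 in other T cells (0%), where edgeR gave an unadjusted p under 0.05 for 27 and 209 peaks and DESeq2 also called 0.

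The calls in white adipocytes depended on the adipocyte-rich mouse, and most of those in B cells did not. This mouse held 1415369 counts in white adipocytes and 50392 in B cells. The other day1CL mice held 44198 and 200163 counts in white adipocytes and 532092 and 616854 in B cells. The part of lost depth in this contrast was not tested. Without the adipocyte-rich mouse, 4 of 13779 genes (0.029%) and 0 of 37021 peaks (0%) passed in white adipocytes, with 3315 peaks at an unadjusted p under 0.05. Of the 261 genes called with all mice, 3 were among these 4, and 258 of the 260 that could still be estimated kept their sign. The remaining mice are in both fits, so agreement in sign is partly built in. By edgeR, 165 of the 260 had an unadjusted p under 0.05. The 4 genes that passed without the adipocyte-rich mouse were Rsph9, Thap8, Phldb1 and Zcchc24, all lower in day1CL. Without the same mouse, B cells had 264 of 11832 genes (2.23%), of which 245 were among the 308, and 32 of 24200 peaks (0.132%). CD4 T cells then had 4 of 9466 genes (0.0423%), CD8 T cells 14 of 10298 (0.136%), other T cells 3 of 6019 (0.0498%) and macrophages 0 of 3727 (0%), where 252 genes had an unadjusted p under 0.05. DESeq2 with all mice called 63 genes in white adipocytes and 31 in B cells, all of them among the edgeR calls. Most of the B cell calls depended on day1CL replicate 1, since without it 47 genes passed. Of the 16 B cell genes named below as called, 3 passed without day1CL replicate 1 and 5 without day1CL replicate 2. Without the adipocyte-rich mouse 14 of them passed.

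**Figure D2:**
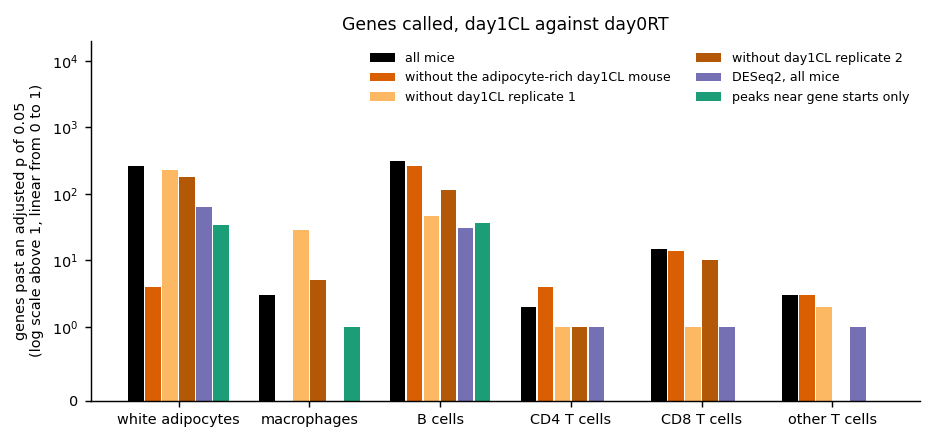
Number of genes past an adjusted p of 0.05 in each cell type (vertical axis, log scale above 1), for all mice, for fits without each day1CL mouse, for DESeq2 and for peaks near gene starts only. White adipocytes fell from 261 to 4 genes without the adipocyte-rich mouse, while B cells had 264 against 308, and 47 without day1CL replicate 1.

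In white adipocytes, 4 of the 15 tested genes of fatty acid synthesis rose after 1 day of CL and none fell, against 0.851% and 1.08% of all genes. The median log2 fold change of the list was 0.45, against -0.01 over all genes tested. The levels that follow are in counts per 1000000 (CPM), scaled by edgeR's TMM factors. Fasn, the fatty acid synthase, had 121, 100 and 118 CPM in day0RT and 154, 228 and 202 CPM in day1CL, and rose by a log2 fold change of 0.82 (SE 0.20, adjusted p = 0.0112). Every day1CL mouse lay above every day0RT mouse. Acss2, which makes acetyl-CoA from acetate, had 126, 112 and 131 CPM in day0RT and 205, 208 and 215 CPM in day1CL (log2 fold change 0.77, adjusted p = 0.0217), but 65.8% of its counts lie in peaks shared with Ggt7 or Gss. Me1, the cytosolic malic enzyme that supplies NADPH, rose with a log2 fold change of 0.66 (adjusted p = 0.0189). Its levels were 214, 212 and 203 CPM in day0RT and 128, 345 and 342 CPM in day1CL, so that day1CL replicate 1, with 5 counts, lay below the day0RT mice. Acaca, the acetyl-CoA carboxylase that commits carbon to fatty acid synthesis, went from 337, 362 and 361 CPM to 307, 566 and 514 CPM (log2 fold change 0.53, adjusted p = 0.0360), again with replicate 1 below the day0RT mice.

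Other members of the list did not pass. Elovl6, which elongates palmitate, had a log2 fold change of 0.61 (adjusted p = 0.0854), as had Pnpla3 with 0.60 (adjusted p = 0.0854), and Acly, the ATP citrate lyase, had 0.58 (adjusted p = 0.254). Scd1, the main stearoyl-CoA desaturase, had -0.66 (adjusted p = 0.0551). The transcription factors of the pathway were near 0, with -0.10 for Srebf1 (adjusted p = 0.819) and an adjusted p of 0.999 for Mlxipl, which encodes ChREBP. Without the adipocyte-rich mouse none of the 15 genes passed, the median was 0.32 against -0.06 over all genes, and the 4 called genes had 0.87 (Fasn), 0.72 (Acss2), 0.50 (Me1) and 0.50 (Acaca). DESeq2 called none of these 4, with an adjusted p of 0.139 for Acaca. With beige adipocyte nuclei added to the white ones, Acss2 (0.87, adjusted p = 0.0024) and Me1 (0.65, adjusted p = 0.00943) passed, and Fasn (0.57, adjusted p = 0.0946) and Acaca (0.38, adjusted p = 0.127) did not. Against cold none of the 4 differed past the threshold. Fasn stood at 120, 263 and 239 CPM in day1C and Acss2 at 143, 257 and 153 CPM. The difference of day1CL from day1C was 0.30 for Acss2 (adjusted p = 0.537), 0.10 for Fasn (adjusted p = 0.892), 0.03 for Acaca (adjusted p = 0.968) and 0.03 for Me1 (adjusted p = 0.969). Later in CL, Acaca had a log2 fold change against the same day0RT mice of 1.16 on day 3 and 0.55 on day 7, and Fasn 0.93 and 0.45.

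The peaks at these genes differed in where the accessibility lay. The peak at chr11:120803546-120806168, over the 3′ end of Fasn, went from 63.7, 56.4 and 57.6 CPM to 88.3, 140 and 139 CPM (log2 fold change 1.20, SE 0.23, adjusted p = 0.000299). Of the 4 tested Fasn peaks only this one passed, and a match to the NR4A letters lay in it. The gene start nearest to this peak is that of Dus1l, not that of Fasn. In Acaca the peak at chr11:84306832-84307397, inside the gene, went from 0, 0 and 1.56 CPM to 0, 24.7 and 21.4 CPM (log2 fold change 4.35, adjusted p = 0.00378), a rise seen in day1CL replicates 2 and 3 and not in replicate 1. The peak at the Acaca start did not pass, with -0.35 (adjusted p = 0.694).

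A pair of genes of the β-adrenergic pathway, Adcy5 and Grk2, was less accessible. Of 17 tested genes for adrenergic receptors, adenylyl cyclases, PKA subunits and their regulators, 2 fell and none rose, against 1.08% and 0.851% of all genes, and the median was -0.20 against -0.01 over all genes. Adcy5, an adenylyl cyclase of adipocytes, had 495, 585 and 557 CPM in day0RT and 282, 306 and 324 CPM in day1CL. It fell by 0.78 on the log2 scale (SE 0.14, adjusted p = 0.000197), with no overlap between the groups, and DESeq2 also called it (adjusted p = 0.00117). Without the adipocyte-rich mouse its value was -0.86 (adjusted p = 0.202). Among its tested peaks 2 passed on their own, with -2.32 at chr16:35157417-35157836 and -2.60 at chr16:35301127-35301583. Grk2, the kinase that phosphorylates agonist-bound β-adrenergic receptors and so desensitizes them, had 77.7, 69.2 and 81.8 CPM in day0RT and 25.6, 32.5 and 43.1 CPM in day1CL (log2 fold change -0.92, adjusted p = 0.0205). These stand for 1, 5 and 47 counts in the day1CL mice, and without the adipocyte-rich mouse the value was -1.33 (adjusted p = 0.514).

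Adrb3 itself, the target of CL, had 221, 192 and 176 CPM in day0RT and 102, 97.6 and 140 CPM in day1CL. All 3 day1CL mice lay below all day0RT mice, but the log2 fold change of -0.55 (SE 0.18) did not pass (adjusted p = 0.0925), and it was -0.98 (adjusted p = 0.448) without the adipocyte-rich mouse. When white and beige adipocyte nuclei were summed together, which gave 377 of 14429 genes past the threshold (2.61%) and 3 of 14426 (0.0208%) without the adipocyte-rich mouse, Adrb3 passed with -0.69 (adjusted p = 0.00867), Adcy5 passed with -0.78 (adjusted p = 0.00012) and Grk2 did not (-0.68, adjusted p = 0.0712). Adrb1 had -0.57 (adjusted p = 0.131). The hormone-sensitive lipase gene Lipe had -0.17 (adjusted p = 0.620), and none of the 14 tested genes of lipolysis passed, against 1.93% of all genes. At that share, the absence of calls among 14 genes says little about the list.

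None of the 18 tested thermogenic genes passed the threshold in white adipocytes after 1 day, against 1.93% of all genes. At that share, the absence of calls among 18 genes says little about the list. Nuclei annotated as beige adipocytes form their own cluster and are not in this test. They numbered 24, 12 and 22 in day0RT and 6, 5 and 95 in day1CL. Of the 18, 14 had a positive log2 fold change, and the median was 0.13 against -0.01 over all genes. Without the adipocyte-rich mouse the median was -0.08. Ucp1, the uncoupling protein of beige and brown fat, had 1, 1 and 3 counts in the day0RT white adipocytes and 0, 1 and 11 in those of day1CL, too few to be tested. Dio2, the deiodinase that activates thyroid hormone, had 0.88 (adjusted p = 0.177), resting on the adipocyte-rich mouse, since it was -0.93 without it. Prdm16, a coregulator of the beige programme, had 439, 446 and 553 CPM in day0RT and 256, 351 and 380 CPM in day1CL (log2 fold change -0.42, adjusted p = 0.0814). Of 19 cAMP and immediate early genes 1 rose, against 0.851% of all genes. It was Camk1d, a calcium/calmodulin-dependent kinase, with 97.1, 123 and 117 CPM in day0RT and 179, 163 and 177 CPM in day1CL (log2 fold change 0.64, adjusted p = 0.0206). Camk1d had -0.07 by peaks near its start alone, and 0.56 (adjusted p = 0.675) without the adipocyte-rich mouse. Fos, Nr4a1 and Ppargc1a did not pass (-0.35, 0.10 and 0.09).

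**Figure D3:**
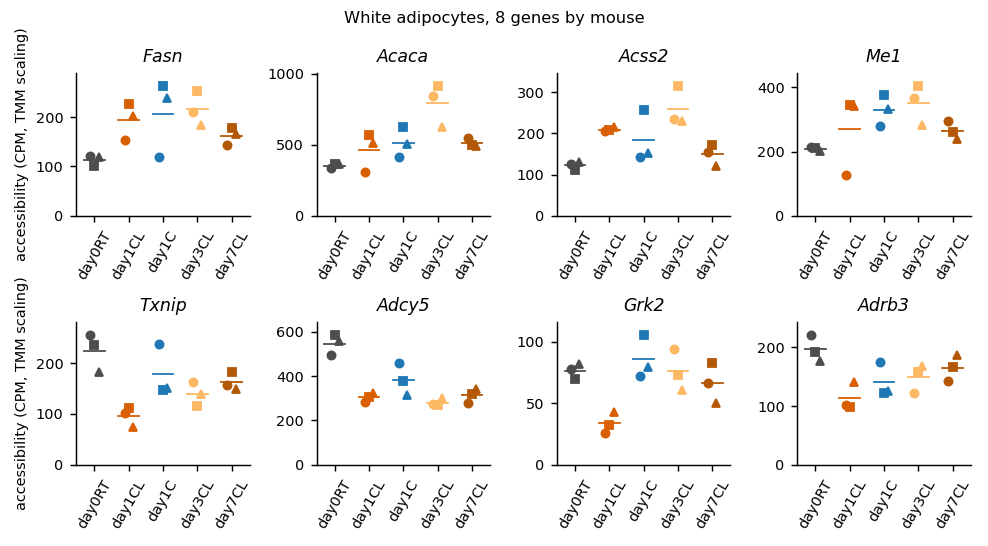
Accessibility of 8 genes in white adipocytes (CPM, TMM scaling) in day0RT, day1CL, day1C, day3CL and day7CL, with mice as points (circle, square and triangle for replicates 1, 2 and 3) and group means as lines. Adcy5 lay between 282 and 324 CPM in day1CL and between 495 and 585 CPM in day0RT, and Fasn lay above its day0RT level in all 3 day1CL mice.

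Among called genes that averaged at least 20 counts per mouse and had every day1CL mouse on one side of the day0RT mean, the largest falls were in Reg4, Celsr2, Txnip, Rsph9 and Irf4. Txnip encodes a glucose-responsive inhibitor of thioredoxin that restrains glucose uptake. It had 255, 235 and 183 CPM in day0RT and 102, 111 and 73.4 CPM in day1CL (log2 fold change -1.43, SE 0.22, adjusted p = 1.47e-05), with 4, 17 and 80 counts behind the day1CL values. Its fall was also seen with peaks near its start alone (-1.08, adjusted p = 0.00531) and against day1C (-1.24, adjusted p = 0.000362). Txnip had a smaller difference on day 3 of CL (-0.73) and on day 7 (-0.41, adjusted p = 0.0942). Celsr2, a seven-pass cadherin, had the smallest p of all genes, with 131, 127 and 125 CPM in day0RT and 51.2, 78.1 and 41.3 CPM in day1CL (-1.45, adjusted p = 1.38e-05). Reg4, a C-type lectin, had -1.51 (adjusted p = 0.000197). Rsph9, a radial spoke protein of cilia, had 49, 25 and 99 counts in day0RT and 0, 3 and 54 in day1CL (-1.41, adjusted p = 3.52e-05), with 28.5% of its counts in peaks shared with Mrps18a. It was the only one of these 5 to pass without the adipocyte-rich mouse (-2.91, adjusted p = 0.0453). Without that mouse Celsr2 had -0.81 (adjusted p = 0.607), Reg4 -0.91 (adjusted p = 0.692) and Txnip -0.99 (adjusted p = 0.449). By peaks near their starts alone, Celsr2 had -0.48 (adjusted p = 0.798) and Rsph9 -0.88 (adjusted p = 0.481).

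Irf4, an interferon regulatory factor found in lymphocytes and induced by fasting in adipocytes, had 87.4, 42.3 and 97.0 CPM in day0RT and 0, 19.5 and 35.8 CPM in day1CL (log2 fold change -1.36, adjusted p = 0.000812). The peak at its start fell as well (-1.47, adjusted p = 0.00314). Together with Myc, which went from 182, 84.6 and 127 CPM to 51.2, 26.0 and 83.4 CPM (-0.86, adjusted p = 0.00899), it made up the 2 of 13 tested genes of lymphocyte activation that fell in white adipocytes, against 1.08% of all genes. Neither passed without the adipocyte-rich mouse, with -2.43 for Irf4 (adjusted p = 0.286) and -2.12 for Myc (adjusted p = 0.107). None of the 13 had a positive value. Some single members of the lymphocyte marker lists moved with these genes. Pax5, the B cell factor, had -1.17 (adjusted p = 0.000799) and Cd2, of T cells, -2.56 (adjusted p = 0.000844), and neither passed without that mouse (-0.98 and -2.64, adjusted p = 0.600 and 0.538). The summed level of the B cell marker list in white adipocytes was 223 to 320 CPM in day0RT and 174 to 202 CPM in day1CL (on the scale of total counts), with no overlap. That of CD4 T cells was 418 to 473 CPM and 286 to 406 CPM. The T cell list (214 to 284 CPM in day0RT and 183 to 229 CPM in day1CL) and the macrophage list (255 to 329 CPM and 286 to 324 CPM) overlapped. So did the CD8 T cell list, at 28.7 to 44.7 CPM in day0RT and 25.4 to 58.0 CPM in day1CL. The endothelial list was higher, at 305 to 380 CPM in day0RT and 406 to 456 CPM in day1CL, and the skeletal muscle list lower, at 110 to 119 CPM and 29.0 to 101 CPM. The part these other cell types have in the changes was not tested.

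The adipocyte markers themselves overlapped between the groups, with a summed level of 3855 to 4682 CPM in day0RT and 3489 to 4584 CPM in day1CL. In the B cells it was 297 to 362 CPM over all 6 mice. Of the 14 markers tested, 1 fell, against 1.08% of all genes. Adipoq, which encodes adiponectin, had 284, 215 and 207 CPM in day0RT and 128, 124 and 141 CPM in day1CL (log2 fold change -0.75, adjusted p = 0.00899), without overlap, and -0.90 (adjusted p = 0.449) without the adipocyte-rich mouse.

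By the same rule, among the largest rises in white adipocytes were those of Pdcd1lg2, Opcml, Lims1 and Pea15a. Pdcd1lg2, which encodes the checkpoint ligand PD-L2, went from 41.3, 30.8 and 31.5 CPM to 76.8, 71.6 and 77.0 CPM (1.16, adjusted p = 0.0018). In day1C it had 1.01 against the same day0RT mice (adjusted p = 0.0219). Its difference of day1CL from day1C did not pass (0.15, adjusted p = 0.828). Opcml, an adhesion protein with a very long gene, went from 60.7, 65.4 and 65.5 CPM to 128, 137 and 138 CPM (1.09, adjusted p = 0.000273), and DESeq2 called it too (adjusted p = 0.00283). Lims1, an adaptor at integrin adhesions, and Pea15a, a small adaptor of ERK signalling, rose by 1.02 each (adjusted p = 0.0018 and 0.0108). The groups did not overlap in any of the 4, but in day1CL replicate 1 each rested on 3 to 5 counts. Without the adipocyte-rich mouse their values were 0.75 to 1.20 and none passed.

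Among single peaks of white adipocytes, the one with the smallest p was at chr10:79896340-79898078 in Med16, 6356 bases from the start of Cfd. It had 146, 136 and 131 CPM in day0RT and 44.1, 16.5 and 21.4 CPM in day1CL, and fell by 2.63 on the log2 scale (SE 0.28, adjusted p = 2.53e-15). Without the adipocyte-rich mouse the value was -2.57, with an adjusted p of 0.0802 and 2 counts in each day1CL mouse. The peak at chr2:157519284-157520383 near Nnat, a gene of adipocytes and neurons, went from 75.9, 122 and 77.9 CPM to 0, 8.23 and 23.8 CPM (-2.03, adjusted p = 2.72e-07). The peak at chr1:72254407-72255761, with 33.4, 32.9 and 31.2 CPM in day0RT and 110, 90.5 and 93.8 CPM in day1CL, had the largest rise by the naming rule (1.55, adjusted p = 1.35e-05), and the nearest start, 29230 bases away, is that of Pecr, a reductase of fatty acid elongation. Peaks that changed were mostly away from gene starts, with 9.95% of the higher and 15.1% of the lower peaks within 2000 bases of one, against 30.6% of all tested peaks. The steroid receptor letters were in 32.6% of the 239 lower peaks and 19.4% of the 201 higher ones, against 23.0% of all tested peaks. The AP-1 letters ran the other way, in 9.21% of the lower and 20.9% of the higher peaks, against 15.8%. The CRE letters, the word bound by CREB, were in 2.09%, 0.498% and 2.02%. A match is a description of the sequence, not a bound site.

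Against day1C, 92 of 13508 genes (0.681%) differed in white adipocytes, 46 in each direction, and 0 of 13779 (0%) without the adipocyte-rich mouse, where 893 had an unadjusted p under 0.05. DESeq2 was not run for this comparison. Txnip, Irf4 and Grk2 were lower after CL than after cold (-1.24, -1.16 and -0.98, adjusted p = 0.000362, 0.0137 and 0.0213), and Camk1d was higher (0.86, adjusted p = 0.00155). For Grk2 the day1C mice had 71.9, 105 and 79.5 CPM, all above the day1CL mice, and for Adcy5, with 457, 377 and 314 CPM in day1C, the difference did not pass (-0.30, adjusted p = 0.368). In B cells 7 of 11502 genes (0.0609%) differed between day1CL and day1C, in macrophages 2 of 3553 (0.0563%), and in CD4, CD8 and other T cells 0 (0% each), with 839, 874 and 348 genes at an unadjusted p under 0.05.

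In B cells, the genes that rose were longer than the genes tested and less accessible at day 0, with a median day0RT level of 34.1 CPM against 66.2 CPM. The same day0RT values enter the calls. A low day0RT level among risen genes and a high one among fallen genes are therefore partly built in. The same holds for the shares below that rest on the cluster with the highest day0RT level. Of the 202 genes that were higher in day1CL, 47.5% were over 200 kb long, against 5.63% of all genes tested and 2.83% of the 106 lower ones, and their median length was 175 kb against 25.7 kb. In 87.1% of them the cluster with the highest day0RT level was not a lymphocyte cluster, against 63.6% of all genes. The lower genes were short (median 17.4 kb), took a median 91.7% of their counts from peaks near a gene start, and 37.7% of them were most accessible in B cells, against 12.3% of all genes. In white adipocytes the contrast in length was smaller, with a median of 68.8 kb for higher, 20.7 kb for lower and 27.6 kb for all genes. Of the lower genes there, 39.7% were most accessible in white adipocytes, against 8.49% of all.

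The share of counts near gene starts moved with these changes. It was 42.5% to 43.1% in the B cells of the day1CL mice, 44.7% to 46.4% in those of day0RT and 43.5% to 43.8% in those of day1C. In white adipocytes it was 27.1% to 27.5% in day1CL and 28.3% to 31.2% in day0RT. Macrophages (36.7% to 37.3% against 38.1% to 39.4%), CD4 T cells (40.8% to 42.5% against 44.4% to 45.4%) and CD8 T cells (41.5% to 42.1% against 42.7% to 43.8%) were lower in every day1CL mouse too, and other T cells overlapped. With this share as a covariate, 55 genes passed in B cells, 23 higher and 32 lower, and 72 in white adipocytes, 17 higher and 55 lower. Counting only peaks near gene starts left 37 genes in B cells (22 higher, 15 lower) and 34 in white adipocytes (14 higher, 20 lower). With total counts in place of TMM factors, 228 genes were higher and 72 lower in B cells, a share of 76.0% higher against 65.6%. The part of library quality in the calls was not tested.

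**Figure D4:**
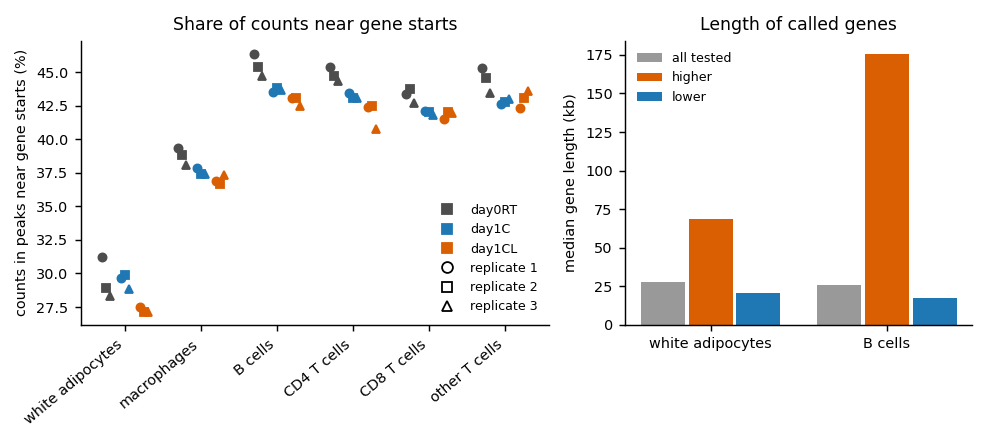
Left, share of counts in peaks within 2000 bases of a gene start (%) in each cell type, with day0RT, day1CL and day1C mice as points. Right, median length (kb) of all tested genes and of the genes called higher or lower in white adipocytes and B cells. All day1CL B cell sums lay between 42.5% and 43.1%, below the day0RT ones, and genes higher in B cells had a median length of 175 kb against 25.7 kb for all genes.

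Among called genes with an average of at least 20 counts per mouse and every day1CL mouse on one side of the day0RT mean, the largest rises in B cells were in Ptprd, Sema6d, Pgm1, Dock4 and Macrod2. Ptprd, a receptor phosphatase best known from neurons, had 41.8, 50.6 and 15.6 CPM in day0RT and 102, 122 and 66.3 CPM in day1CL (log2 fold change 1.74, SE 0.23, adjusted p = 1.04e-08). It had the same value in day1C (1.74), from the same day0RT mice. Sema6d, a transmembrane semaphorin, had 1.26 (adjusted p = 0.00203), Dock4, an activator of Rac and Rap GTPases, 1.15 (adjusted p = 0.000975) and Macrod2, a mono-ADP-ribose hydrolase, 1.13 (adjusted p = 0.00532). Pgm1, a phosphoglucomutase, rose from 34.5, 28.9 and 38.0 CPM to 78.4, 79.1 and 88.4 CPM (1.18, adjusted p = 0.000975), with 45.2% of its counts in peaks shared with Itgb3bp. In day1C against day0RT, Macrod2 had 1.13 (adjusted p = 0.00384), Sema6d 0.93 (0.0589), Dock4 0.64 (0.262) and Pgm1 0.48 (0.535). The difference of day1CL from day1C passed for none of the 5 genes. All 5 kept an adjusted p under the threshold without the adipocyte-rich mouse, whose B cells gave only 3 to 8 counts to each of them. DESeq2 called Ptprd, Pgm1 and Dock4 (adjusted p = 0.0495, 0.0427 and 0.0492) but not Sema6d or Macrod2 (0.0677 and 0.147). Of the 16 B cell genes named as called, 3 passed by DESeq2. With the share of counts near gene starts as a covariate 4 passed, and with only nuclei of at least 1000 counts 2 passed. By the same rule the largest falls were in Sp9, Kcnh6, Nt5c, Sgta and Mrpl30. Sp9, a zinc finger factor, had 60.6, 60.3 and 60.3 CPM in day0RT and 26.1, 22.6 and 44.2 CPM in day1CL (-1.26, adjusted p = 0.00448). Nt5c, a nucleotidase, had -1.14 (adjusted p = 0.00557) and Sgta, a co-chaperone, -1.11 (adjusted p = 0.0176). Kcnh6, a potassium channel, had -1.15 (adjusted p = 0.0471, and 0.0561 without the adipocyte-rich mouse). Mrpl30, a mitochondrial ribosomal protein, shares all its counts with Mitd1 (-0.91, adjusted p = 0.0228).

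Few genes of the pathway lists changed in B cells. Of 20 cAMP and immediate early genes, 1 rose and 1 fell, against 1.76% and 0.922% of all genes. Fos, the AP-1 subunit, went from 93.0, 77.1 and 61.5 CPM to 47.9, 33.9 and 66.3 CPM (log2 fold change -0.90, adjusted p = 0.0176), with the adipocyte-rich mouse within the day0RT range at 3 counts. Pde4d, a cAMP phosphodiesterase, rose from 258, 265 and 297 CPM to 355, 373 and 287 CPM (0.39, adjusted p = 0.0422). Of 13 adrenergic and PKA genes only Grk2 passed, a fall, against 0.922% of all genes. It had 453, 431 and 439 CPM in day0RT and 338, 343 and 376 CPM in day1CL (-0.37, SE 0.11, adjusted p = 0.0425), without overlap, and 478, 467 and 430 CPM in day1C. The difference of day1CL from day1C did not pass for Grk2 (-0.41, adjusted p = 0.103). Of 14 thermogenic genes 2 rose, against 1.76% of all genes. Prdm16 went from 8.36, 4.82 and 13.4 CPM to 28.3, 32.0 and 22.1 CPM (1.61, adjusted p = 0.0233). It had 8, 2 and 12 counts in day0RT and 13, 17 and 1 in day1CL. Esrrg, an orphan nuclear receptor, went from 34.5, 31.3 and 31.3 CPM to 63.2, 60.3 and 44.2 CPM (0.89, adjusted p = 0.0344). Both are long genes at levels far below those of adipocytes. Both exceed 200 kb, as did 47.5% of the genes higher in B cells and 5.63% of all genes tested. Cd36, the fatty acid translocase, had 0.75 (adjusted p = 0.0327, and 0.0577 without the adipocyte-rich mouse). In day1C against the same day0RT mice, Prdm16 had 1.28 (adjusted p = 0.189), Esrrg 0.82 (adjusted p = 0.0951) and Cd36 0.85 (adjusted p = 0.00699). None of these genes differed past the threshold between day1CL and day1C. None of the tested genes of lymphocyte activation (15), residence and trafficking (14), proliferation (17) or the interferon response (14) passed, against 2.68% of all genes. At that share, the absence of calls in lists of this size says little about each list.

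The B cell markers were lower as a list, with a summed level of 2785 to 2814 CPM in day0RT and 2401 to 2607 CPM in day1CL, without overlap. Of the 12, all tested, 1 fell, Fcrla (-0.53, adjusted p = 0.024), against 0.922% of all genes. The macrophage list was higher in B cells of day1CL, at 144 to 229 CPM against 115 to 142 CPM, as was the CD4 T cell list, at 360 to 391 CPM against 285 to 343 CPM, and the CD8 T cell list was lower, at 68.6 to 111 CPM against 127 to 159 CPM. Their part in the B cell changes was not tested.

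The B cell peak with the smallest p was the intergenic one before Pak3 whose sequence is given above. It had 31.5, 55.7 and 23.0 CPM in day0RT and 117, 117 and 111 CPM in day1CL, and rose by 1.83 on the log2 scale (SE 0.23, adjusted p = 1.2e-10). The same peak rose in CD8 T cells, from 57.6, 57.5 and 38.2 CPM to 153, 162 and 39.7 CPM (1.55, adjusted p = 0.00253), where the adipocyte-rich mouse, with 1 count, stayed at the day0RT level. By the same rule a pair of peaks in Sfi1 came next, at chr11:3156484-3157239 (1.49) and chr11:3173912-3174660 (1.27). Falls were smaller, at chr19:46502671-46503081 in Trim8 (-1.31), chr10:14042600-14043213 in Hivep2 (-1.30) and chr11:115491112-115492265 in Nt5c (-1.08), and these 3 had an adjusted p of 0.0747, 0.061 and 0.0657 without the adipocyte-rich mouse. Many of the 29 peaks that rose in B cells lie in a single gene, Sfi1, so the 29 are not separate loci. Of these 29 peaks, 20.7% held the AP-1 letters, against 13.8% of all tested peaks. The steroid receptor letters were in 31.0% of them, against 20.8% of all tested peaks.

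Sfi1, which encodes a centrin-binding protein of the centrosome, was the gene shared most widely, called in 5 of the 6 cell types. It was singled out after its values were seen. The gene lies at chr11:3131850-3193463 on the minus strand and has 29 peaks. Its levels, in CPM of total counts, were 667, 741 and 651 in the day0RT B cells and 1516, 1480 and 1532 in those of day1CL, a log2 fold change of 1.12 (SE 0.09, adjusted p = 6.08e-22). In CD4 T cells it went from 692, 708 and 494 CPM to 1395, 1291 and 2009 CPM (1.09, adjusted p = 9.63e-15), in CD8 T cells from 900, 1138 and 981 CPM to 1877, 1740 and 1953 CPM (0.87, adjusted p = 1.46e-16), and in other T cells from 902, 1268 and 1008 CPM to 1647, 1850 and 1615 CPM (0.74, adjusted p = 0.000154). White adipocytes had the lowest levels, 411, 428 and 359 CPM in day0RT and 638, 642 and 686 CPM in day1CL (0.76, adjusted p = 0.000197), and there Sfi1 did not pass without the adipocyte-rich mouse. Macrophages had 1229, 1467 and 1375 CPM in day0RT and 2073, 2277 and 1566 CPM in day1CL, and did not pass (0.53, adjusted p = 0.221). In every one of the 6 cell types each day1CL mouse lay above each day0RT mouse. The day1C B cells lay between, at 1126, 960 and 1087 CPM. In white adipocytes day1C, at 554, 615 and 728 CPM, overlapped day1CL. Against the same day0RT mice, day1C passed in CD4 T cells (0.85, adjusted p = 7.43e-09) and CD8 T cells (0.51, adjusted p = 6.12e-05). In other T cells it did not (0.41, adjusted p = 0.659). The difference of day1CL from day1C passed in none of these T cell clusters (0.24, 0.37 and 0.33, adjusted p = 0.569, 0.0736 and 0.744). All Sfi1 peaks tested in B cells had a positive value. Of 287 stretches of 50 bases cut from its peaks, 6 (2.09%) occur more than once in the reference genome. Copies that differ in sequence or are missing from the reference are not seen by this search. The part of such copies in the change was not tested.

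**Figure D5:**
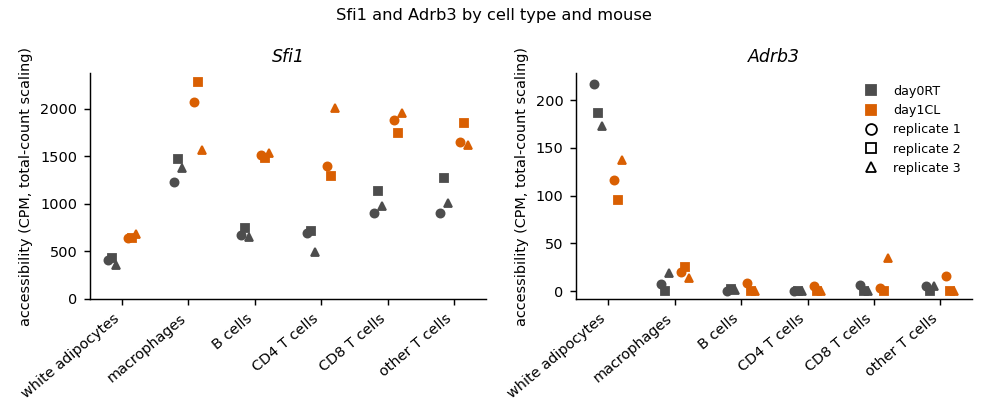
Accessibility (CPM of total counts) of Sfi1 and Adrb3 in the 6 cell types, with day0RT and day1CL mice as points (circle, square and triangle for replicates 1, 2 and 3). Sfi1 was higher in every day1CL mouse than in every day0RT mouse of all 6 cell types, while Adrb3 was open mainly in white adipocytes, with 50 to 140 counts per day0RT mouse there and 0 to 4 per mouse in the other 5 cell types.

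In all, 24 genes were called in at least 2 of the 6 cell types. White adipocytes and B cells, where 1.93% and 2.68% of all tested genes were called, shared 18. Of these 18, 16 had the same direction, and these 2 comparisons use the same 6 mice. Whether 18 is more than chance would give was not tested. Txnip was one of the 18, with -1.43 in white adipocytes and -0.68 in B cells (adjusted p = 0.0187). Mdfic, which holds a MyoD family inhibitor domain, was called in white adipocytes (0.59), B cells (0.60) and other T cells (1.01). Pepd, a peptidase of proline-containing dipeptides, went opposite ways, with -0.49 in white adipocytes and 0.84 in B cells.

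Adrb3 had 91, 50 and 140 counts in the day0RT white adipocytes and 4, 15 and 153 in those of day1CL, and 0 to 4 counts in each mouse in the other 5 cell types compared. Adrb1 was tested in white adipocytes alone. Ucp1 had at most 1 count in any B or T cell sum and 0 in all macrophage sums.

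Whether a gene responded differently in white adipocytes and B cells was tested on the difference of the effects. With limma on the differences of log2 CPM within mice, 49 of 10789 genes (0.454%) passed, 18 with the larger value in white adipocytes and 31 with the smaller. Without the adipocyte-rich mouse limma gave 1197 of 11128 (10.8%), from 2 day1CL mice of unequal depth. With edgeR and the mouse as a block, a test added after the data were seen, 43 of 10789 (0.399%) passed, 2 and 41, and 30 of 11128 (0.27%) without that mouse, and 13 genes were called by limma and edgeR alike. By edgeR, Prdm16 (-2.26, adjusted p = 0.00394), Ptprd (-1.47, adjusted p = 0.00394) and Rsph9 (-2.41, adjusted p = 0.0236) differed. None of these 3 passed by limma, where the adjusted p was 0.0552, 0.124 and 0.0584. For the called genes of fatty acid synthesis that were tested in both cell types, no difference passed by either test. Acaca had 0.57 by edgeR (adjusted p = 0.457), Acss2 0.98 (adjusted p = 0.227) and Me1 -0.38 (adjusted p = 0.891), and Fasn was not tested in B cells. For Sfi1 the difference was -0.43 (adjusted p = 0.380), and for Grk2 -0.75 (adjusted p = 0.583). Between macrophages and B cells 0 of 3496 genes (0%) passed with limma, and edgeR gave 0 as well, with 177 and 219 genes at an unadjusted p under 0.05.

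Apart from Sfi1, few genes were called in T cells. Each T cell cluster held fewer counts than the B cells in every day1CL mouse. Whether T cells and B cells differed in their response was not tested. In CD4 T cells the other gene called was Atp10a, a phospholipid flippase, with 275, 357 and 340 CPM in day0RT and 581, 525 and 132 CPM in day1CL (log2 fold change 0.75, adjusted p = 0.0166), where the adipocyte-rich mouse, with 2 counts, lay below the day0RT mice. It was named after its values were seen. Without that mouse Cpa3, the carboxypeptidase of mast cells, and Spaca6, a sperm membrane protein, also passed (adjusted p = 0.035 and 0.0367). In CD8 T cells, Il6ra, the interleukin 6 receptor, fell from 495, 677 and 555 CPM to 352, 402 and 232 CPM (-0.62, adjusted p = 0.0175), and Atp8b4, a P4-type ATPase, from 416, 363 and 393 CPM to 257, 241 and 232 CPM (-0.67, adjusted p = 0.0175). Immp2l, a peptidase of the inner mitochondrial membrane, rose from 211, 201 and 186 CPM to 330, 321 and 365 CPM (0.72, adjusted p = 0.0175). In none of these 3 did the groups overlap. Macrod2 rose by 0.96 and Gm28557 by 1.03, the latter with all its counts shared with Rslcan18 or Zfp708. Ddb1 (-1.44) and Tkfc (-1.14) are neighbours with shared peaks, and cannot be told apart there. Aloxe3 had -1.11, with 47.4% of its counts in shared peaks. In other T cells Mdfic rose from 291, 456 and 312 CPM to 663, 652 and 822 CPM (1.01, adjusted p = 0.0117). Gpc6, a glypican, was called on 1, 0 and 4 counts in day0RT and 2, 16 and 2 in day1CL (adjusted p = 0.0329), and was named after its values were seen. The summed T cell marker list was lower in all 3 T cell clusters, at 2296 to 2747 CPM against 3128 to 3372 CPM in CD4, 2371 to 2978 CPM against 3067 to 3090 CPM in CD8 and 1876 to 2297 CPM against 2609 to 2800 CPM in other T cells. None of the 12 T cell markers passed in any of the 3, against 0.0208% (CD4), 0.145% (CD8) and 0.0515% (other T cells) of all genes. At these shares, the absence of calls among 12 genes says little. In CD4 T cells the macrophage list was higher, at 95.7 to 104 CPM against 53.6 to 59.2 CPM, and the dendritic cell list lower, at 398 to 478 CPM against 486 to 503 CPM. In other T cells the mural cell list was higher, at 156 to 204 CPM against 72.0 to 105 CPM. The part of these lists was not tested.

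In macrophages 3 genes were called, and none of them without the adipocyte-rich mouse. Lrp1, a receptor for lipoproteins and apoptotic debris, had 398, 450 and 191 CPM in day0RT and 375, 613 and 1062 CPM in day1CL (log2 fold change 1.21, adjusted p = 0.0206), and 0.44 (adjusted p = 0.848) without the adipocyte-rich mouse. Slx4ip had 13, 1 and 8 counts in day0RT and 3, 9 and 55 in day1CL (1.72, adjusted p = 0.0161, and 1.05, adjusted p = 0.748, without that mouse). Kazn was lower in every day1CL mouse, with 1, 2 and 1 counts against 10, 12 and 13 (-2.80, adjusted p = 0.0444, and -1.56, adjusted p = 0.708, without that mouse). Cd36, also a scavenger receptor of macrophages, had 1.20 (adjusted p = 0.0586) and 0.24 without that mouse. Against day1C, B4galt1 (1.60, adjusted p = 0.0489) and Zbtb16, a glucocorticoid-responsive factor (1.81, adjusted p = 0.0134), were higher, and no gene passed in that comparison without the adipocyte-rich mouse. Slx4ip, Kazn, B4galt1 and Zbtb16 were named after their values were seen. None of the genes of lipid handling (8 tested), of NF-kB and inflammatory cytokines (3) or of the interferon response (1) passed, against 0.0844% of all genes. At that share a count of 0 among so few genes says little about these lists. The macrophage marker list overlapped, at 659 to 943 CPM in day0RT and 705 to 1220 CPM in day1CL. The dendritic cell list was lower, at 605 to 809.5 CPM against 1018 to 1240 CPM, and so was the endothelial list, at 518 to 564 CPM against 600 to 720 CPM, and their part was not tested.

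No cluster changed its share of nuclei past the threshold. Of 12 clusters, edgeR on the numbers of nuclei called 0, with 2 at an unadjusted p under 0.05, dendritic cells (log2 fold change -1.92) and VECs (1.88). In edgeR both had an adjusted p of 0.218. White adipocytes made up 9.56%, 10.1% and 16.1% of the nuclei in day0RT and 1.66%, 4.70% and 50.3% in day1CL. B cells made up 37.8%, 32.2% and 39.1% in day0RT and 46.5%, 45.9% and 5.94% in day1CL. An exact permutation test of 3 mice against 3 cannot go below p = 0.1, so such a test could not pass. As a share of the nuclei that are not lymphocytes, white adipocytes were 39.5%, 31.2% and 55.8% in day0RT and 18.0%, 29.6% and 57.1% in day1CL. The groups overlapped in each of these shares. They did not overlap for other T cells, at 6.67%, 7.75% and 7.03% of all nuclei in day0RT and 5.99%, 6.04% and 1.53% in day1CL. There edgeR gave an adjusted p of 0.680.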

How the data were processed

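Nuclei of iWAT from 21 mice were profiled by snATAC-seq in 4 sequencing lanes that each pool all mice, so mouse, group and cluster came from the deposited annotation of nuclei. The deposited counts are a matrix of 189598 peaks by 32552 nuclei in which the authors wrote 1 for a nucleus with a read in a peak and 0 otherwise. Per the labels and the study's methods, the authors aligned reads with Bowtie2 to mm10, removed duplicates per barcode as well as mitochondrial reads, dropped barcodes with few reads, few reads in peaks or a high doublet score, clustered with Signac and merged the MACS2 peaks of the clusters. Binary values understate sites that are open on both alleles. Peaks were called on the nuclei of each initial cluster together, which can still favour large clusters.

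Peaks were assigned to protein-coding genes of GRCm38 that they overlap, with 2000 bases upstream, and 17196 of 21951 genes had a peak. Counts were summed per mouse and cluster and tested with edgeR 4.0.16 (R 4.3.3, TMM factors, filterByExpr with a minimum count of 10, quasi-likelihood test, two-sided), with all 7 groups in the fit and Benjamini-Hochberg adjustment over all features tested. DESeq2 1.42.0 and limma 3.58.1 served as alternatives or for differences between clusters, and each mouse was left out in turn. Adjusted p-values that DESeq2 gave as NA stayed NA. Sequences were read from GRCm38, with peak coordinates as deposited. The edgeR and DESeq2 steps were tested on simulated data.

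In each cluster the 5 genes (3 peaks) of largest change in each direction were named, provided that they were called, averaged 20 counts or more per mouse, and had every day1CL mouse on one side of the day0RT mean, where fewer than 3 passed also the 3 of smallest p, then called genes of fixed lists (at most 6 a list), Adrb1, Adrb3 and Ucp1. Some genes that the rule named are not reported here. The clusters, lists and tests were chosen with earlier results of these data known. The mice are separate animals by the labels, and binary counts carry no molecule counts, so precision rests on nuclei per mouse.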

Additional observations from a re-analysis of the deposited data

How the results depend on the processing

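The gene counts of white adipocytes (261) and B cells (308) stayed within 1.5 times without a filter on low counts, with total counts in place of TMM factors, with only the 2 groups compared in the fit and with a minimum of 30 nuclei. DESeq2 called 63 and 31 genes there, 1 each in CD4, CD8 and other T cells, and 0 in macrophages. It called 6 adipocyte, 9 B cell, 0 CD4 and 0 CD8 peaks. Peaks near gene starts alone gave 34, 37, 0 (CD4), 0 (CD8), 1 (macrophages) and 0 (other T cells) genes. The share of counts near starts as a covariate, added after the data were seen, gave 72, 55, 1 (CD4), 2 (CD8) and 0 (macrophages). Nuclei with at least 1000 counts gave 19 genes in B cells, 4 in CD4, 1 in CD8 and 1 in other T cells. A minimum of 30 nuclei gave 4 in CD4, 8 in macrophages and 1 in other T cells, and no filter 1 in other T cells. With only the 2 groups in the fit, 126 adipocyte peaks, 0 CD4 peaks and 0 macrophage genes passed. The cause of these changes was not tested.

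Leaving out each mouse gave 4 to 226 genes in white adipocytes, 47 to 291 in B cells, 1 to 5 in CD4, 1 to 14 in CD8, 0 to 29 in macrophages and 0 to 3 in other T cells, 0 to 429, 8 to 32, 0 to 2 and 0 to 4 peaks in white adipocytes, B, CD4 and CD8 T cells, and 3 to 353 genes with white and beige adipocytes together. The lowest adipocyte count was without day1CL replicate 3 (4), and day0RT replicates 1 and 3 also mattered (153 and 114). In B cells the counts without day1CL replicates 1 and 2 were 47 and 114, and without day0RT replicates 1 and 3 they were 121 and 172. CD8 T cells had 1 gene without day1CL replicate 1, and macrophages 29. Against day1C, leaving out day1CL replicate 3 gave 0 genes in white adipocytes and macrophages and 5 in B cells. The difference between white adipocytes and B cells gave 1197 genes by limma without that mouse and 30 by edgeR.

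Day1CL and day0RT mice with the same number did not deviate together over all genes (correlations from -0.035 to 0.019). With sparse counts such correlations cannot show whether same-numbered mice share a batch. Same-numbered CL mice of different days do share barcodes, as given above. The fit with a replicate block gave 289 genes in white adipocytes, 236 in B cells, 2 in CD4, 15 in CD8, 0 in macrophages and 2 in other T cells, and 454 and 27 peaks in white adipocytes and B cells.

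Signs turned for Camk1d (-0.067) and Acaca (-0.31) in white adipocytes with peaks near starts alone, and for Zbtb16 in macrophages (from -0.18 without day1CL replicate 3 to 1.05 without day1CL replicate 1). Depth limits the low genes most, since day1CL replicate 1 had 23 adipocyte nuclei.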
